A study of Mus musculus with 19 samples.

Results

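The 6 livers of vehicle-treated mice were taken from a series of 19 mouse liver arrays, by their label as animals given DMSO (dimethyl sulfoxide, the solvent of the test compounds). They are described on their own, as a baseline of the fasted liver: which genes gave signal above background, which gave none, and which differed between animals that had received the same treatment. The donors were male Swiss-Webster mice, an outbred stock, aged 7 weeks. They were fasted before the intraperitoneal injection of DMSO under isoflurane, stayed fasted, and were killed 4 h later. Each array carried the liver RNA of 1 mouse on an Illumina MouseRef-8 BeadChip. The remaining 13 mice had received IDFP, an inhibitor of the endocannabinoid-degrading enzymes FAAH and MAGL, with or without the CB1 receptor antagonist AM251, and were not analysed here. There is therefore no contrast between treatments in what follows, and genes picked for their spread between livers carry no test. The liver is frozen whole tissue, so fewer cells of a type and less RNA per cell cannot be told apart. The labels do not tie a mouse to a chip, so livers that shared a chip cannot be named.

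Most of the RNA of liver comes from hepatocytes, which make the plasma proteins, apolipoproteins and complement, detoxify drugs through cytochromes P450 and conjugating enzymes, and keep blood glucose up in fasting by glycogen breakdown and gluconeogenesis. Several hepatocyte programs are set from outside the organ within hours. Glucocorticoids and glucagon drive fasting genes, growth hormone pulses act through STAT5, feeding and light set the circadian clock, and interleukins drive the acute phase response. Such programs can differ between animals killed in the same experiment, whereas genes for ribosomes, respiration and plasma carriers are known as steadily expressed.

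A gene was called above background where at least 1 of its probes exceeded a threshold on at least 4 of the 6 arrays. The threshold, set from the spread of values below 0, lay at 17.4 to 17.5 units of deposited signal. Of 16593 named genes, 8778 (52.9%) were above background and 6084 (36.7%) were below it on every array. The remaining 1731 genes passed on 1 to 3 arrays. Between 9048 and 9163 genes passed on each array. The deposited values were already quantile-normalized, which makes such counts nearly equal, so they do not compare the livers. Signals below are background-corrected, quantile-normalized array units, in which the threshold lay at 59.0 to 59.2 units. Over genes, the arrays correlated with Pearson's r of 0.972 to 0.989 in pairs. DMSO3 had the lowest mean correlation to the others (0.978), and DMSO4 the highest (0.986). DMSO3 was also the highest liver for 117 and the lowest for 96 of the 359 genes called variable below, whereas DMSO4 was so for 22 and 28. Without DMSO3, 283 genes were variable, of which 240 were among the 359. Where leaving out DMSO3 ended a call or moved an SD by over 1.5 times, the value without it is often given. A missing value does not show that a spread was independent of DMSO3.

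Most markers of hepatocytes, Kupffer cells, sinusoidal endothelium and stellate cells were detected, and most of those of bile ducts and other organs were not. Of the hepatocyte markers on the array, 16 of 17 were above background, against 52.9% of all genes. Markers of Kupffer cells, the resident macrophages, were above background for 12 of 14 genes, those of sinusoidal endothelium for 16 of 18 and those of stellate cells for 11 of 13. All 7 erythroid markers were detected as well. Neutrophil markers reached 7 of 14, T and NK cell markers 5 of 14, B and plasma cell markers 3 of 9, and bile duct markers 2 of 5, with Krt19 and Cftr below background on all arrays.

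No adipose marker (0 of 6, Adipoq, Lep, Plin1, Retn and Fabp4 being below on every array) and no skeletal muscle marker (0 of 9) was above background on 4 arrays. Deposited signals of the muscle creatine kinase gene Ckm lay between -22.7 and -10.4 units. Brain markers were above background for 3 of 12 genes, testis markers for 2 of 9, kidney markers for 1 of 6, intestine markers for 1 of 6 and pancreas markers for 4 of 10. The fetal liver marker Afp was below background in every liver. The Y-linked genes Kdm5d and Uty were above background on all 6 arrays, with signals of 126 to 181 and 121 to 151 units, and Xist was below background on all 6, which fits animals labelled male.

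**Figure D1:**
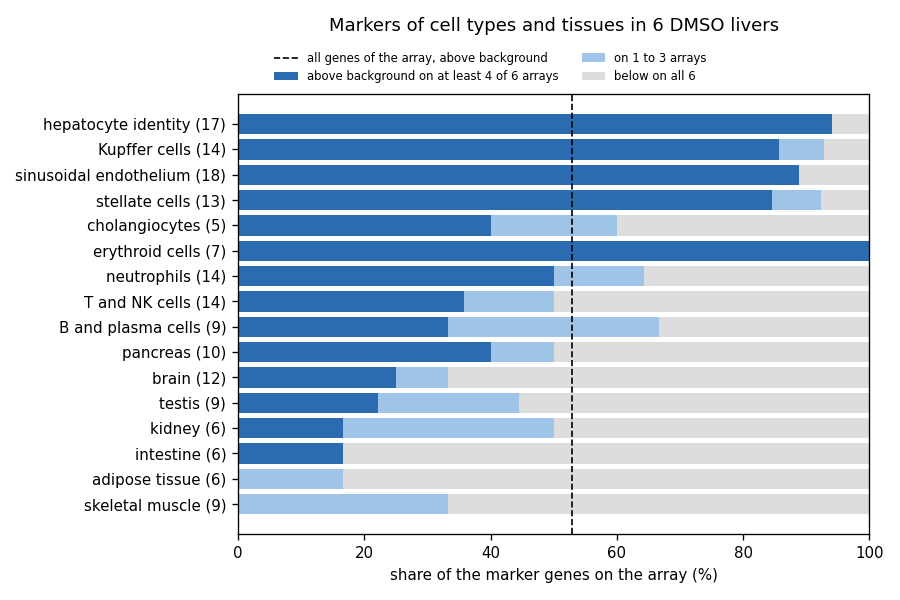
Share of marker genes on the array that were above background on at least 4 of 6 DMSO arrays (dark bars), on 1 to 3 arrays (light bars) or below on all 6 (grey bars), with the number of markers on the array in parentheses. The dashed line is the 52.9% of all genes. Hepatocyte, Kupffer, endothelial, stellate and erythroid markers lie above it, and adipose and muscle markers show no dark bar.

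Gene families that serve the nose or the embryo were largely undetected. Of 1058 olfactory receptor genes, 897 were below background on all arrays (84.8%, against 36.7% of all genes), as were 123 of 141 vomeronasal receptors and 27 of 38 Hox genes. In contrast, 34 of 36 proteasome subunits, 19 of 21 glutathione S-transferases, 13 of 15 apolipoproteins and 14 of 16 members of the serpin A clade were above background. Cytochromes P450 divided, with 49 of 74 above and 17 of 74 below on all arrays.

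Low signal from a probe does not measure absence of the RNA. Fabp1, the liver fatty acid binding protein and a defining hepatocyte gene, was below background on all arrays, with deposited signals of -23.2 to -6.56 units from its 1 probe. Albumin (Alb), the main plasma protein, gave 112 units in the lowest liver, a median of 466 and 849 in the highest. The fibrinogen beta chain gene Fgb gave 31.1, 70.2 and 174 units as lowest, median and highest, whereas the fibrinogen alpha chain gene Fga gave 27145, 29948 and 32829. The level of these RNAs cannot be read from such probes.

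The 40 brightest genes gave mean signals of 26450 to 36605 units and included many secreted proteins. Of the 40, 31 belonged to at least 1 of the 52 gene lists, which include housekeeping genes, and 11 were plasma carriers and inhibitors: Ttr, Trf, Ambp, Ahsg, Azgp1, Hpx, Serpina1b, Serpina1c, Serpina1d, Kng1 and Itih4. Apolipoproteins gave 5 (Apoa1, Apoa2, Apoc1, Apoc3 and Apoe), acute phase proteins 5 (Hp, Hpx, Serpina3n, Itih4 and Fga) and cytochromes P450 3 (Cyp2d9, Cyp2e1 and Cyp3a11). Outside the secreted proteins stood Gpx1 and Prdx1, which remove peroxides, Fth1, the ferritin heavy chain, Mat1a, which makes the liver's methyl donor, Dbi, the acyl-CoA binding protein, and the metallothionein Mt1.

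Brightness on such an array reflects how well a probe binds as well as how much RNA there is, so the order of these genes is not an order of abundance. The ceiling of the scale also compresses them: quantile normalization gave every array the same highest deposited value, 37432 units. Gpx1 gave 36170 or 37473 corrected units in every liver, and Fth1 34114 to 35314. Among the 40, the median SD between livers was 0.09 on the log2 scale, against 0.21 over all genes above background. The widest spread of the 40 was in Apoc1, whose highest and lowest livers were 1.49-fold apart, with DMSO5 and DMSO6 at 23932 and 23442 units and the other livers between 31556 and 34845.

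The spread between livers was small for most genes. The SD of log2 signal had a median of 0.21, with quartiles at 0.15 and 0.28, and the highest and lowest livers differed 1.45-fold at the median gene. An SD over 0.5, called variable here, was reached by 359 of 8778 genes (4.09%), and an SD over 1 by 26. In 71 genes the highest liver exceeded the lowest more than 4-fold. Variable genes were found at all but the lowest signals, with none among the 439 dimmest genes, where the correction for background shrinks differences, and 10 of the 439 brightest.

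**Figure D2:**
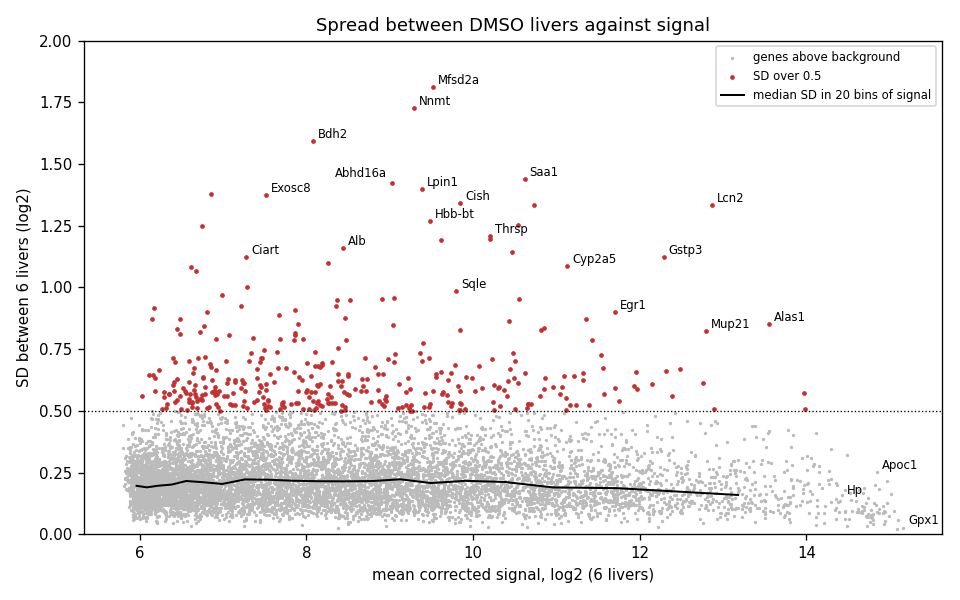
SD of log2 signal between 6 DMSO livers (vertical axis) against mean log2 signal (horizontal axis) for 8778 genes above background. Red points are the 359 genes with an SD over 0.5 (dotted line), and the black line is the median SD in bins of signal. Mfsd2a and Nnmt stand highest, and the brightest genes, such as Gpx1, lie near 0.

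Plasma protein and housekeeping genes had the lowest median SDs. The median signals of plasma carriers and apolipoproteins were 25517 and 22616 units, near the ceiling that compresses spread, so their low SDs do not measure how steady the RNA was. Of 47 ribosomal protein genes above background none was variable, with a median SD of 0.14, and the same was true of 60 genes of oxidative phosphorylation (median SD 0.13) and 13 apolipoproteins (0.13). Ribosomal and oxidative phosphorylation genes were bright too, with median signals of 7943 and 4961 units. The 439 brightest genes had a median SD of 0.16, with 2.28% variable, so low spread was not particular to these lists. Plasma carriers had the lowest median SD of the 40 lists with at least 5 genes above background, 0.11, with Alb and Serpinc1 as their 2 variable members of 24. Of 28 proteasome genes 1 was variable, of 16 heat shock genes 1, and of 17 tRNA synthetase genes none, which is about the 4.09% of all genes. The ribosomal protein genes moved in parallel, with a median r of 0.35 between pairs of them over the 6 livers, against 0.00 for all pairs of genes above background.

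By contrast, several lists of genes under hormonal, inflammatory or daily control, and those of the cell cycle and cholesterol synthesis, held many variable genes. The share was 53.8% for glucocorticoid targets and metallothioneins (7 of 13), 44.4% for immediate early genes (8 of 18), 42.9% for the cell cycle (6 of 14), 42.1% for growth hormone, STAT5 and IGF genes (8 of 19), 36.0% for the acute phase (9 of 25), 35.3% for the clock (6 of 17) and 26.3% for cholesterol synthesis (5 of 19), each against 4.09% of all genes. High shares were not confined to these lists: histocompatibility class I genes gave 4 of 13, hepatocyte markers 4 of 16 and neutrophil markers 3 of 7. Shares were low for interferon response genes (2 of 28) and genes of fatty acid oxidation (1 of 33). In all, 25 of 40 lists exceeded 2 times the share of all genes. With a floor of 10 units in place of the normexp correction 17.8% of all genes were variable, and 12 lists exceeded 2 times that share, 11 of them among the 25. Lists can share members: Lcn2 stands among the glucocorticoid targets as well as the neutrophil markers, so their shares are not separate readings. A list is described here by its counts, and no test was made of it.

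**Figure D3:**
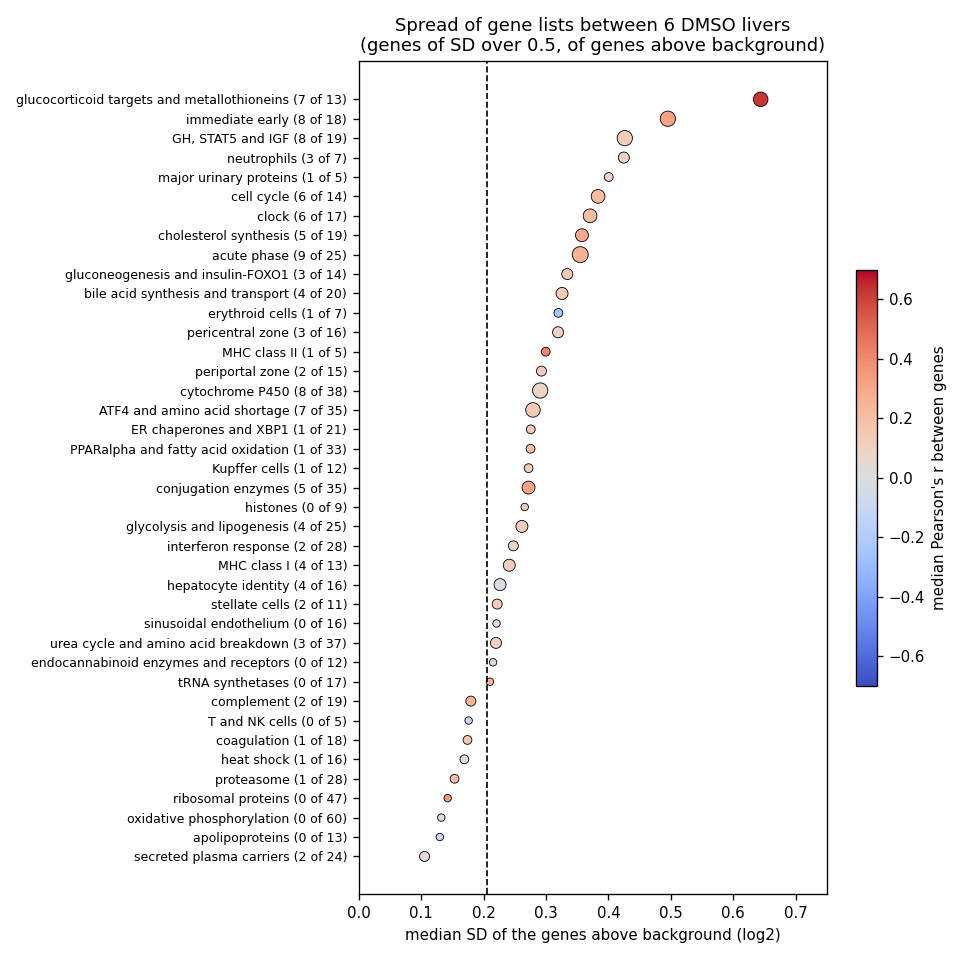
Median SD of log2 signal (horizontal axis) for the 40 lists with at least 5 genes above background, with the number of variable genes of those above background in parentheses. Circles grow with that number, colour gives the median r between members over the 6 livers, and the dashed line is the median SD of all genes, 0.21. Glucocorticoid targets have the largest median SD (0.64) and median r (0.62), and plasma carriers have the smallest SD (0.11).

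Several acute phase genes differed mainly through DMSO3, but the list as a whole did not. Over its 25 genes the median SD was 0.35, and 0.33 without DMSO3. The median deviation was -0.24 in DMSO3 and 0.28 in DMSO5. Saa1, which encodes serum amyloid A, gave 229 units in DMSO3 and between 1534 and 3879 in the other livers (SD 1.44). Saa2 gave 279 units in DMSO3 and 1556 to 3459 elsewhere (SD 1.33). Lcn2, lipocalin 2, an iron-sequestering protein of the same response, gave 1328 units in DMSO3, 5444 in DMSO2 and 10065 to 16771 in the other livers (SD 1.33).

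For all 3 genes DMSO3 was lowest and DMSO6 highest. Saa3 followed the same order at its ends, with 169 units in DMSO3, a median of 470.0 and 1220.4 in DMSO6. The lipopolysaccharide-binding protein gene Lbp spanned 2765 to 8679 units and the orosomucoid gene Orm2 2485 to 7263, again lowest in DMSO3 and highest in DMSO6. Il1rn, the interleukin 1 receptor antagonist, differed from these, with 238 units in DMSO5 against 74.0 to 135 elsewhere. The brightest acute phase genes, near the ceiling, varied little in signal: Hpx spanned 32434 to 37473 units, and Hp gave 23666 in DMSO3 against 32434 to 35314 in the rest.

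Without DMSO3, 6 of 25 acute phase genes were variable in place of 9, and the SD was 0.51 for Saa1, 0.42 for Saa2, 0.60 for Lcn2 and 0.34 for Lbp. Orm2 had an SD of 0.48 without DMSO3, and Il1rn 0.36 without DMSO5. Lcn2 is also made by neutrophils and stands in the list of their markers. The neutrophil markers S100a8 and S100a9 were highest in DMSO5, at 821 and 421 units, and at 268 and 175 in DMSO3, with a range of 268 to 536 and 159 to 304 outside DMSO5. Their part in the Lcn2 signal was not tested, and Ngp, Ltf, Mpo, Mmp8 and Cxcr2 were below background on all arrays.

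Glucocorticoid targets had the largest median SD of the 40 lists, and a few metabolic genes the largest SDs of all. Mfsd2a, a transporter of lysophosphatidylcholine, had the largest SD of all genes (1.81). It gave 103 units in DMSO3, 264 in DMSO2, 944 and 1052 in DMSO5 and DMSO4, and 2196 and 2590 in DMSO6 and DMSO1, a 25.1-fold range. Lpin1, a phosphatidate phosphatase, kept the 2 low and 2 high livers, with 171 and 266 units in DMSO3 and DMSO2 and 1612 and 1893 in DMSO6 and DMSO1 (SD 1.40).

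Thrsp, a promoter of lipid synthesis, gave 339 and 790 units in DMSO3 and DMSO2 and 2117 and 3890 in DMSO6 and DMSO1 (SD 1.21). The gluconeogenic gene Pck1 gave 685 units in DMSO2, a median of 2044 and 3293 in DMSO6 (SD 0.83). Mfsd2a, Lpin1 and Thrsp thus shared their low livers, DMSO2 and DMSO3, and their high livers, DMSO1 and DMSO6. In Pck1 DMSO2 and DMSO3 were also the lowest livers, at 685 and 1297 units, and DMSO6 the highest, with 2011 in DMSO1. The cholesterol synthesis list differed in DMSO2, where its median deviation was 0.21. In the other livers named it was -0.34 (DMSO3), 0.18 (DMSO1) and 0.23 (DMSO6).

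Among glucocorticoid targets, Per1, a clock component that the hormone induces directly, gave 72.9 units in DMSO3, 148 in DMSO2, 325 in DMSO1 and 405 in DMSO6 (SD 0.89, and 0.58 without DMSO3). Fkbp5, a chaperone of the glucocorticoid receptor, gave 382 units in DMSO3 and 1354 in DMSO1. Cdkn1a, the p21 inhibitor of cyclin-dependent kinases, gave 323 and 352 units in DMSO3 and DMSO2 and 871 to 1002 in the other livers. The median deviation of the 13 genes from their own means was -0.53 in DMSO3, -0.40 in DMSO2, 0.06 in DMSO4, 0.18 in DMSO1, 0.24 in DMSO5 and 0.53 in DMSO6.

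The metallothioneins did not share this spread, with an SD of 0.13 for Mt1, near the ceiling of the array, and 0.39 for Mt2. Tsc22d3, a glucocorticoid-induced leucine zipper protein, had an SD of 0.42. Leaving out any 1 mouse left 7 or 8 of the 13 genes variable. Igfbp1, an IGF binding protein that insulin represses, was set apart by DMSO6 and DMSO5, at 4026 and 2704 units against 689 to 1300 in the other livers. Dusp1, a phosphatase of MAP kinases, gave 3633 units in DMSO6 and 863 to 1679 elsewhere, and its SD was 0.36 without DMSO6.

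Nnmt, which methylates nicotinamide, had the second largest SD (1.73), from 125 units in DMSO3 and 232 in DMSO2 to 1475 in DMSO6 and 3158 in DMSO1. Its second probe gave 44.5 and 56.0 units in DMSO3 and DMSO2, and 296 and 546 in DMSO6 and DMSO1, with r = 0.987 between the probes over the 6 livers. Alas1, the rate-limiting enzyme of haem synthesis and a gene that fasting induces, gave 4476 units in DMSO3, 8524 in DMSO2 and 12038 to 22511 in the others (SD 0.85, and 0.55 without DMSO3).

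**Figure D4:**
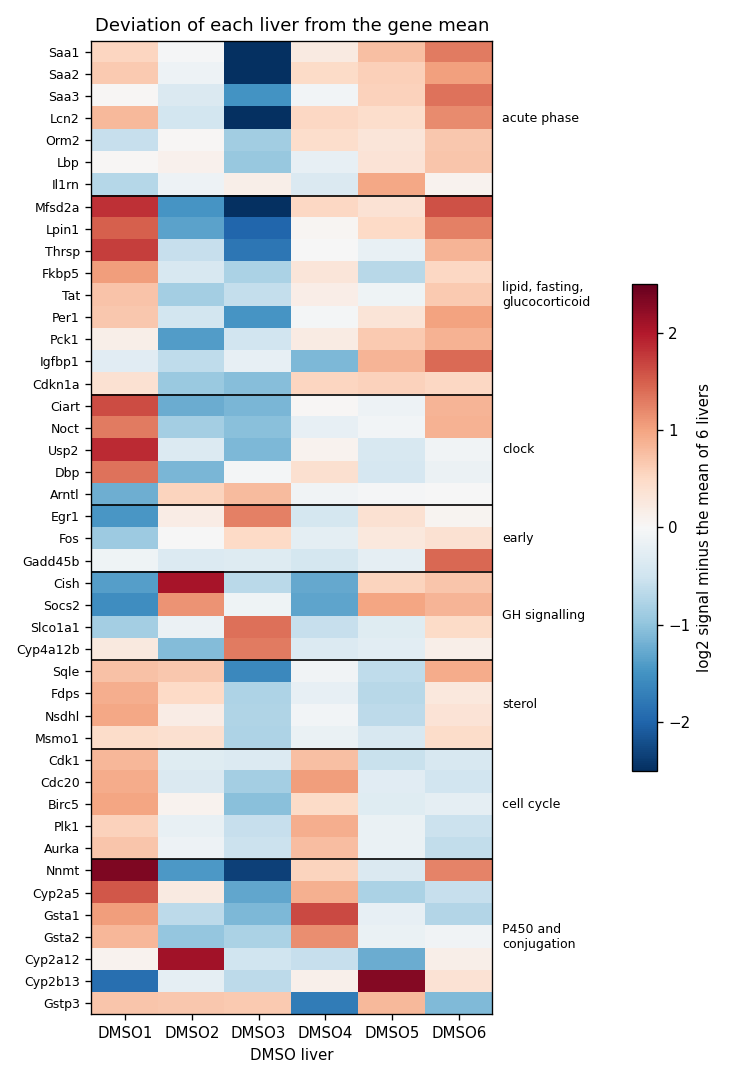
Log2 signal of each gene in each DMSO liver minus the mean of the 6 livers (red above, blue below), grouped by program. DMSO3 is blue across the lipid and sterol genes and the acute phase genes other than Il1rn, DMSO1 and DMSO4 are red across the cell cycle, and DMSO2 is red for Cish and Cyp2a12.

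Clock output genes were mostly highest in DMSO1. Ciart, a circadian repressor, gave 483 units in DMSO1, 281 in DMSO6, 65.4 and 69.9 in DMSO2 and DMSO3, and 142 and 158 in DMSO5 and DMSO4 (SD 1.12). Its second probe followed, with r = 0.965. Usp2, a clock-controlled ubiquitin protease, gave 566 units in DMSO1 against 71.4 to 167 elsewhere (SD 1.00), and Noct, nocturnin, gave 367 in DMSO1, 271 in DMSO6 and 72.3 to 142 in the others (SD 0.93).

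Dbp, a transcription factor of the clock's output, gave 4712 units in DMSO1 and 834 in DMSO2, with 1379 to 2428 in the others. Arntl (Bmal1), whose transcript peaks opposite to Dbp, was lowest in DMSO1, at 111 units against 241 to 447 elsewhere. Across the 6 livers r between Arntl and Dbp was -0.805 (exact permutation p = 0.0778, adjusted p = 0.209). Nr1d1, a repressor of Arntl, spanned no more than 264 to 347 units, and Dbp and Nr1d1 gave r = -0.271 (exact permutation p = 0.614). Without DMSO1, 4 of 17 clock genes were variable in place of 6: the SD of Usp2 was 0.47 and that of Arntl 0.40, whereas Ciart, Noct and Dbp were still variable, with SDs of 0.88, 0.75 and 0.57. Npas2, Cry1, Hlf and Bhlhe41 were below background on all arrays.

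The start region of Ciart is shown because its gene led the clock list in spread and because its promoter carries the E-box, CACGTG, the site to which CLOCK and BMAL1 are known to bind. The sequence is RefSeq's on GRCm38.p6 (chr3:95882199-95882378, minus strand), from 150 bases before the annotated start to 30 after it, with each CACGTG in capitals.
Ciart: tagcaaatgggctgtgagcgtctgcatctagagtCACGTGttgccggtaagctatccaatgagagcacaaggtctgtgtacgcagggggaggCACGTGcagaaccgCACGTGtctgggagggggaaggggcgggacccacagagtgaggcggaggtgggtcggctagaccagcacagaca
The motif, which reads the same on both strands, occurred 3 times, at positions -116, -58 and -44 from the start. It was found in 5.09% of all 32851 promoter windows of that length and in those of 2 of the 14 clock genes above background that had one. A match is a string of letters and not a measured binding site.

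Immediate early genes, transcribed soon after a stress or growth stimulus, split between DMSO1, DMSO3 and DMSO6. Egr1 was lowest in DMSO1 (1226 units) and highest in DMSO3 (7987 units), with 2459 to 4345 in the others (SD 0.90). Fos, dim on this array, kept these ends, with 65.7 units in DMSO1 and 174 in DMSO3. The pair correlated with r = 0.931 (rho = 0.829, exact permutation p = 0.00556, adjusted p = 0.0426, 6 livers), and with r = 0.727 without DMSO1 and DMSO3. The pair was chosen with earlier results known, so this p is not independent evidence. Without DMSO1 alone the SD of Fos was 0.30.

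Other genes of the list ran differently. Errfi1, an inhibitor of the EGF receptor, gave 7249 units in DMSO3 against 16479 to 21356 elsewhere, and Ccn2, connective tissue growth factor, 368 units in DMSO3 against 695 to 1218. Gadd45b gave 228 units in DMSO6 and 62.0 to 78.5 in the rest, and its SD was 0.13 without DMSO6. Without DMSO3, 4 of 18 genes were variable in place of 8, with SDs of 0.14 for Errfi1 and 0.34 for Ccn2. Fosb, Fosl1, Ier2, Ier5, Myc, Btg2, Nr4a1 and Nr4a2 were below background on all arrays.

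Cish and Socs2 shared their high livers among the growth hormone genes. Cish, a suppressor of cytokine signalling that growth hormone induces through STAT5, gave 3843 units in DMSO2, 1480 and 1353 in DMSO6 and DMSO5, and 354 to 577 in DMSO1, DMSO4 and DMSO3 (SD 1.34). Socs2, of the same family and induced likewise, gave 2115 to 2566 units in DMSO2, DMSO5 and DMSO6, 1095 in DMSO3, and 402 and 469 in DMSO1 and DMSO4 (SD 1.19). The same 3 livers, DMSO2, DMSO5 and DMSO6, were thus the high ones for both.

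Other variable genes of the list, several of them male-predominant, peaked in different livers. The organic anion transporter gene Slco1a1 was highest in DMSO3 (234 units against 49.9 to 125), as was Cyp4a12b of the P450 list (504 against 96.5 to 242). Without DMSO3 the SD of Slco1a1 was 0.50, just under the threshold for a variable gene, and that of Cyp4a12b 0.53. Hsd3b5, a steroid dehydrogenase, was highest in DMSO2 (3238 units) and lowest in DMSO4 (1178 units, against 2063 to 2792 in the other 4 livers), and its SD was 0.25 without DMSO4. Serpina12 had the same ends, with 1303 units in DMSO2 and 478 in DMSO4. DMSO2 was the highest liver for Cish as well, and DMSO4 among its low ones. Cyp2d9 spanned 25838 to 31953 units. Igf1, the hormone's main liver product, had an SD of 0.23 and the receptor gene Ghr 0.18. The median r within the list was 0.13. Stat5b and Onecut1 were below background on all arrays.

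The start region of Cish is given for its STAT5 motif, TTCNNNGAA, which also reads the same on both strands. It is shown from 150 bases before to 30 after the annotated start (GRCm38.p6, chr9:107296509-107296688, plus strand, RefSeq), with the matches in capitals.
Cish: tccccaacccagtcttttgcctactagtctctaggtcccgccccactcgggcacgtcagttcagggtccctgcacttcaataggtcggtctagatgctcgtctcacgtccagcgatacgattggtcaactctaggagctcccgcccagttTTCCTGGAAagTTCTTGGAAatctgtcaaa
The 2 matches began at positions 1 and 12. Of all promoter windows 4.94% held the motif, and of the 15 growth hormone genes above background with a window 3 did. Neither these matches nor those in the windows of Ciart, Cdk1 and Cdc20 overlapped a match to another of the 3 motifs searched.

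Genes of cholesterol synthesis were high in DMSO1, DMSO2 and DMSO6. Sqle, squalene epoxidase, gave 1688, 1475 and 1423 units in DMSO6, DMSO1 and DMSO2, 837 in DMSO4, 568 in DMSO5 and 292 in DMSO3 (SD 0.99, and 0.66 without DMSO3), and its second probe gave r = 0.996. Fdps, farnesyl diphosphate synthase, gave 3613 to 5687 units in those 3 livers and 1762 to 2608 in the others, without overlap. Msmo1 gave 3034 to 3178 units in the 3 and 1350 to 2058 in the rest, and Nsdhl 525 to 904 and 273 to 439. The SD of Msmo1 was 0.41 without DMSO3, under the threshold for a variable gene.

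Idi1, isopentenyl diphosphate isomerase, instead stood low in DMSO5 alone (156 units against 309.9 to 491, SD 0.27 without DMSO5), and r between Sqle and Idi1 was 0.280 (exact permutation p = 0.604). Of the fatty acid branch, the regulator Srebf1 gave 56.8 to 93.0 units and the fatty acid synthase gene Fasn 58.0 to 90.1, in each case from just below the background threshold upwards. No gene of the cholesterol list was below background.

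Of the 6 variable cell cycle genes, 5 mitotic ones were high in DMSO1 and DMSO4. Cdk1, the mitotic kinase, gave 209 and 199 units in DMSO1 and DMSO4 and 79.9 to 95.3 in the other 4 livers. Cdc20, an activator of the anaphase-promoting complex, gave 671 and 734 units in those livers against 196 to 293, with r = 0.932 to a second probe. Plk1 and Aurka, mitotic kinases, gave 259 and 326 units, and 193 and 204 units, in DMSO1 and DMSO4, against 116 to 156 and 78.0 to 110.2.

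Birc5, survivin, gave 260.0 and 183 units in DMSO1 and DMSO4 and 63.6 to 140 elsewhere. For each of these 5 genes DMSO1 and DMSO4 were thus the 2 highest livers, and the groups did not overlap, a split named after the values were seen. The sixth variable gene, Mcm5, a subunit of the replicative helicase, gave 290.1 units in DMSO1, 246 in DMSO2, 194 in DMSO4 and 114 to 171 in the others. Over all 14 genes the median deviation was 0.40 in DMSO1, 0.13 in DMSO4 and 0.09 in DMSO2. Ccna2, Ccnb2, Bub1, Ube2c and Ccne2 were below background on all arrays, so the program was read through 14 of 24 genes.

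The windows of Cdk1 and Cdc20 are shown, as genes with a wide gap between 2 high livers and the other 4. They are given for the CHR element, TTTGAA, through which cell cycle genes are held down in resting cells. Both lie on the minus strand (GRCm38.p6, RefSeq), at chr10:69352883-69353062 and chr4:118437314-118437493, and cover 150 bases before to 30 after the start, with TTTGAA or its reverse complement in capitals.
Cdk1: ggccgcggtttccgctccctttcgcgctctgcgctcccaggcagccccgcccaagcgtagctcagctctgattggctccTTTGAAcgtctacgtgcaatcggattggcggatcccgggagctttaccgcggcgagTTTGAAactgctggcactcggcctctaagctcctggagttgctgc
Cdc20: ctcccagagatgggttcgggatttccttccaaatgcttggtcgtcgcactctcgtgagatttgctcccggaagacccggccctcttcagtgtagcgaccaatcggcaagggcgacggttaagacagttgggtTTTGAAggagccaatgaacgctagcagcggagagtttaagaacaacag
Cdk1 held it at positions -71 and -15 and Cdc20 at -18. Among the 12 cell cycle genes above background with a window, these were the 2 that held it, and 10.4% of all windows did.

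Drug-metabolizing enzymes held several variable members. Of 38 cytochromes P450 above background 8 were variable (21.1%, against 4.09%), and of 35 conjugating enzymes 5 (14.3%). Cyp2a5, coumarin 7-hydroxylase, gave 6563 and 4135 units in DMSO1 and DMSO4, 908 in DMSO3 and 1298 to 2632 in the others (SD 1.09), with r = 0.999 to its second probe. Gsta1 and Gsta2, glutathione transferases of the alpha class, were likewise highest in DMSO4 and DMSO1, with 955 and 632 units against 139.8 to 267, and 1173 and 938 units against 271 to 495.

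Cyp2a12 was instead 6058 units in DMSO2 and 603 to 1572 elsewhere, and its SD was 0.56 without DMSO2. Cyp2b9 and Cyp2b13, better known as enzymes of female mouse liver, gave 347 to 1586 and 31.2 to 568 units, and both were lowest in DMSO1 and highest in DMSO5. Cyp2e1 spanned 26186 to 29628 units and Gsta3 20838 to 29482, near the ceiling, where a narrow range does not show a steady RNA. Of the major urinary proteins, made by male mouse liver, Mup21 gave 3018 units in DMSO5 and 16413 in DMSO1 (SD 0.82), whereas Mup2 and Mup6 had SDs of 0.13 and 0.15 near the ceiling. Near-identical Mup and Cyp genes can share probe sequence, so these signals may not belong to the named gene alone.

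Genes of fatty acid oxidation were variable at about the share of all genes, and those of the amino acid response above it. Of 33 genes of fatty acid oxidation under PPARalpha above background 1 was variable (3.03%, against 4.09% of all genes), Fgf21, a fasting hormone of the liver. It gave 2713 units in DMSO1, 3890 in DMSO6 and 6563 to 8398 in the others (SD 0.67, and 0.46 without DMSO1). Of 35 genes of the ATF4 amino acid response 7 were variable, with Vldlr first, from 120 to 496 units (SD 0.85). The count was 4 of 35 without DMSO1 or without DMSO3, and 6 to 8 without any other 1 mouse. The median r within the list was 0.15, so its variable genes do not stand for the response as a whole. Asns, asparagine synthetase, was lowest in DMSO1 (1222 units) and highest in DMSO2 (2682), and r between Fgf21 and Asns was 0.711 (exact permutation p = 0.1, adjusted p = 0.209). None of Asns, Chac1, Psat1, Trib3 and Inhbe was variable, with SDs of 0.24 to 0.45.

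Neither Cyp4a14 (1896 to 4313 units) nor Angptl4 (1930 to 4158), both PPARalpha targets of the fasted liver, was variable. Among the study's own targets, the endocannabinoid-degrading enzymes Faah and Mgll gave 2962 to 4466 and 2244 to 3354 units, with SDs of 0.22 and 0.25. The CB1 receptor gene Cnr1 passed the threshold on 1 of 6 arrays, with deposited signals of 0.547 to 20.3 units. None of the 12 endocannabinoid genes above background was variable, against 4.09% of all genes. At that share a list so short often holds none, so this does not set these genes apart.

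In some genes a wide gap separated the livers. In 36 of 8778 genes the largest gap between neighbouring livers exceeded 1 on the log2 scale and 60% of the whole range. In 15 of these 1 liver stood above the rest, in 9 of them 1 stood below, and in 12 at least 2 livers lay on each side. Of the 24 with 1 liver apart, DMSO3 was that liver in 15, DMSO5 in 4, DMSO1 in 3 and DMSO6 in 2. Bdh2, a cytosolic dehydrogenase, gave 54.3 and 83.3 units in DMSO2 and DMSO5 and 454 to 803 in the others. Gstp3, a glutathione transferase of the pi class, gave 1488 and 2329 units in DMSO4 and DMSO6 and 7882 to 8805 in the others.

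Gadd45a, a stress-induced growth arrest gene, gave 265 and 280.3 units in DMSO1 and DMSO6 against 568 to 703, and its second probe repeated this (r = 0.975). Exosc8, a subunit of the RNA exosome, gave 30.3 units in DMSO5 against 175 to 512 (SD 1.37, and 0.58 without DMSO5). The haemoglobin gene Hbb-bt gave 3735 units in DMSO3 and 377 to 926 elsewhere. Its SD was 1.27, and 0.54 without DMSO3. Hba-a1 was highest in DMSO3 too, but spanned only 18078 to 30091 units (1.66-fold). Hbb-b2 was highest in DMSO4, and Alas2 was lowest in DMSO3, at 462 units against 1177 to 2484 elsewhere (SD 0.86, and 0.43 without DMSO3). The part of blood in the Hbb-bt signal was not tested.

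**Figure D5:**
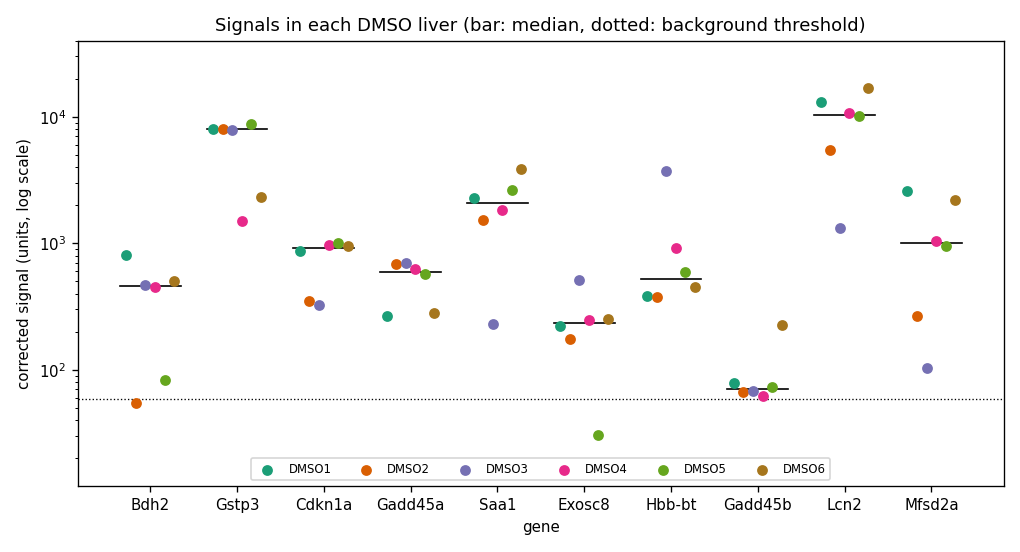
Corrected signal (log axis) of 10 genes in each of 6 DMSO livers, each colour 1 liver, the bar the median and the dotted line the background threshold. Bdh2 and Gstp3 show 2 low livers each, Saa1 and Lcn2 a low DMSO3, and Hbb-bt a high DMSO3 of 3735 units.

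A second probe served as another reading of the same RNA. In 2204 genes with at least 2 probes above background, r between the brightest 2 had a median of 0.459 over the 6 livers. In the 73 of them that were variable the median was 0.798, 36 had r over 0.8 (49.3%, against 23.4% of all 2204), and 25 had r below 0.5. The agreement held for Cdkn1a (0.994) and Birc5 (0.992). It did not hold for Serpinc1, antithrombin, whose brightest probe ranged from 546 to 4641 units while the second gave 1074 to 1417 (r = 0.06), nor for the mitochondrial phosphate carrier Slc25a3 (r = -0.68), nor for H2-K1 (r = 0.06).

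Principal components of all 8778 genes gave the axes along which the livers differed. The first held 43.7% of the variance, with DMSO1, DMSO6 and DMSO2 at 16.9, 15.1 and 11.2 and DMSO4, DMSO5 and DMSO3 at -6.59, -13.6 and -23.0. Its positive side was led by Nnmt, Mfsd2a, Saa1, Sqle, Thrsp, Lcn2, Saa2, Ddx6, Il1r1 and Lpin1, and its negative side by Hbb-bt, Nono, Vldlr, Laptm4b, Alb, Tnfaip2, Fig4, Mfsd3, Myo5b and Sec14l2. The second (18.5%) set DMSO5 at 16.5 against DMSO3 at -15.2, and the third (15.6%) DMSO2 at 10.7 against DMSO1 at -14.6, with Cish, Socs2 and Slc25a30 first on its positive side. The order on each axis is a description of 6 animals.

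The variable genes fell by average linkage, joined while their mean correlation was over 0.7, into 8 clusters of at least 10 genes, which together held 249 of the 359. The largest, of 77 genes, was highest in DMSO3 (median deviation 0.93) and lowest in DMSO2 (-0.59), and was led by Hbb-bt, Slco1a1, Cyp4a12b and Nono. The second, of 55 genes, was high in DMSO1, DMSO2 and DMSO6 (0.51, 0.43 and 0.62) and held Sqle, Fdps, Nsdhl and Msmo1 with the cytokine receptors Il1r1 and Il6ra. The third, of 30 genes, was lowest in DMSO3 (-1.13) and highest in DMSO6 (0.77), and joined Saa1, Saa2, Saa3 and Lcn2 with Mfsd2a, Lpin1, Thrsp, Per1, Pck1 and Alas1.

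The fourth cluster, of 27 genes, was low in DMSO1 (-0.87) and held Egr1, Cyp2b9, Nupr1, Arntl and Fgf21. The fifth, of 22 genes, was high in DMSO4 and DMSO1 (0.71 and 0.69) and held Gsta1, Cyp2a5 and Usp2 together with Cdc20, Birc5, Cdk1, Plk1 and Aurka. The sixth, of 15 genes, was high in DMSO1 and DMSO6 (0.88 and 0.60) and held Nnmt, Ciart, Noct, Gsta2, Lpin2, Fkbp5 and Tat. Saa1, Saa2 and Lcn2 thus shared a cluster with Mfsd2a, Lpin1 and Thrsp, and Cdc20 and Cdk1 shared theirs with Gsta1 and Cyp2a5, over 6 livers. The clusters were drawn from the same values, so their internal correlation is not a test.

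Of the 23 gene pairs with both genes above background, 16 correlated positively. The pairs were chosen with earlier results of these data known, so their p describe these 6 livers and are no independent support for a relation. The adjusted p was under 0.05 for 3: Lcn2 with Saa2 (r = 0.989, rho = 0.943, exact permutation p = 0.00278, adjusted p = 0.0426), Lcn2 with Saa1 (r = 0.975, rho = 0.829, exact permutation p = 0.00556, adjusted p = 0.0426), and the Fos and Egr1 pair. Without DMSO2 and DMSO3, r was 0.921 for Lcn2 with Saa2 and 0.754 for Lcn2 with Saa1. G6pc and Igfbp1, both under insulin's control, gave r = 0.876 (rho = 0.943, exact permutation p = 0.0125, adjusted p = 0.0719), and the cold-inducible pair Cirbp and Rbm3 gave r = 0.802 (exact permutation p = 0.0431, adjusted p = 0.198). By Spearman's rho no pair passed, with adjusted p of 0.128 at the lowest, and Lcn2 with Asns gave r = -0.151 (exact permutation p = 0.726).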

How the data were processed

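The values analysed are the intensity of each probe on 6 arrays, which the authors produced from the scanned BeadChips in BeadStudio 3.2 by quantile normalization and background subtraction and deposited as one value table. On each array 30.1% to 30.2% of values were below 0. From these, normexp background correction with an offset of 16 (limma 3.58.1, R 4.3.3), quantile normalization over the 6 arrays and log2 were computed. This correction adds to low signals, so log2 differences of dim genes are understated. A gene was read by the brightest of its probes that were above background on at least 4 arrays. Probes were named from the platform annotation, with symbols checked against RefSeq on GRCm38.p6: 23978 of 25697 probes had 1 gene, 23962 of these matched, and 1719 were not named. The background threshold was a fixed multiple of the root mean square of the values below 0. The SD over mice is the measure of spread, 0.5 the threshold for a variable gene.

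Lists of genes (52), gene pairs (28), markers and thresholds were chosen with earlier results of these data known. Genes named are the 40 with the largest SD, the 40 brightest, up to 4 of the most variable and 4 of the brightest of each list, list members below background, genes of the pairs, the first 10 of each sign on component 1, and a few set genes. Other genes named, among them cluster members, genes with a wide gap between livers and a few further list members, were chosen after their values were seen. Exact permutation tests are two-sided over 720 pairings, adjusted by Benjamini-Hochberg over 23 pairs, the smallest p possible being 0.00139. Intervals of counting error do not apply to arrays, and the number of mice limits the precision. The functions were tested on simulated data. Another table of unnormalized signals and detection p-values, 38 columns named by chip position, could not be tied to mice and was not used. The alternatives tried were another offset, a floor of 10 units without normexp, median scaling, the mean over probes, stricter background rules and leaving out each mouse.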

Additional observations from a re-analysis of the deposited data

Results flagged for a closer look

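Of 168 named genes, 10 had 1 liver so far from the other 5 that its gap as a share of the whole range exceeded Dixon's critical value for 6 samples. Chance alone gives such a gap in about 1 of 20 genes, and 4.93% of all genes above background (433) had it. DMSO3 was the liver apart in 7 of the 10. Which liver stood apart was not counted over the 433, so this count describes named genes only. In DMSO3 Saa1 gave 229 units, Saa2 279, Hp 23666, Serpina3n 23309, Cyp3a11 21965 and Errfi1 7249, each the lowest of the 6 livers, and the other 5 Cyp3a11 signals lay between 30091 and 31794.

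The seventh, Faah, was highest in DMSO3, at 4466 units (SD 0.22, and 0.06 without DMSO3). Without DMSO3 the SD was 0.05 for Hp, 0.06 for Serpina3n and 0.03 for Cyp3a11. These 3 genes are among the 40 brightest, near the ceiling that compresses spread, so such low SDs do not show a steady RNA. Gadd45b was highest in DMSO6, at 228 units. Cyp4a14 was lowest in DMSO2, at 1896 units, and Fasn was lowest in DMSO6, at 58.0 units, which lies at the background threshold.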

How the results depend on the processing

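No paired analysis was possible because the 6 livers form 1 group. Leaving out each mouse gave 8962 to 9000 genes above background, 6188 to 6294 below, 283 to 463 variable, 23 to 25 lists over 2 times the background share, and a first component of 45.0% to 49.1% of variance. Without any 1 mouse 0 pairs passed, fewer mice allowing fewer pairings, while r stayed between 0.84 and 0.99 for Lcn2 with Saa1, the lowest being without DMSO3. An offset of 50 gave 226 variable genes, all among the 359, and a first component of 45.6%. A floor of 10 units without normexp gave 1562 variable genes, 12 lists over 2 times the share (11 of them among the 25) and a first component of 37.4%. Requiring all 6 arrays moved the first component to 46.2%, an SD over 2 times that of genes of like signal called 686 genes, including all 359, and Spearman's rho passed 0 of 23 pairs. With the mean over probes the SD was 0.64 for Serpinc1, 0.40 for H2-K1 and 0.43 for Steap4. The MAD in place of the SD called 379 genes, 232 of them among the 359. The dimmest genes cannot be ranked by spread.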

Other observations

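The region of the major histocompatibility complex between H2-K1 and H2-M3, chosen after the values were seen, held 8 variable genes of 80 above background (10.0%, against 4.09% of all genes), with a median SD of 0.22. H2-D1, a class I molecule, gave 1013 units in DMSO5 and 1927 to 3300 in the other livers (SD 0.60, and 0.30 without DMSO5), and H2-Eb1, a class II chain, gave 48.8 units in DMSO5 and 98.9 to 242 elsewhere. Abhd16a, a phosphatidylserine lipase encoded in the same region, was instead highest in DMSO5, at 1745 units. It was lowest in DMSO3, at 100.5 units, with 292 to 761 in the others (SD 1.42, and 0.91 without DMSO3). H2-Q10, the secreted class I molecule of liver, was highest in DMSO3, at 487 units.

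Of 1058 olfactory receptor genes, 61 (5.77%) passed the background threshold on at least 4 arrays. None of these was variable, against 4.09% of all genes above background. The correction shrinks differences of dim genes, and none of the 439 dimmest genes was variable. The lack of variable receptors therefore does not show a steady RNA. Rgs16, a regulator of G protein signalling, gave 2600 and 1873 units in DMSO6 and DMSO3 and 376 to 654 in the other livers. Acta2, smooth muscle actin, gave 564 and 419 units in DMSO4 and DMSO2 against 112 to 242, but its second probe gave 76.9 to 124 units, with r = 0.724 to the first. The Kupffer cell genes Clec4f and Vsig4 were highest in DMSO5 and lowest in DMSO6, at 1628 and 1089 units and at 2590 and 1516 units. Neither was variable, with SDs of 0.21 and 0.30. Over the 12 Kupffer cell markers above background the median deviation was 0.15 in DMSO4, 0.08 in DMSO5 and -0.23 in DMSO6. The median r between these markers was 0.12, so the 2 genes do not stand for the list.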
